A study of Mus musculus with 8 samples.

Results

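Insulin and the insulin-like growth factors (IGFs) act on beta cells, the insulin-secreting cells of the pancreatic islet, through a small set of receptors, docking adaptors and secreted binding proteins. A set of 10 genes of this system was measured by RNA sequencing of islets: the ligands Igf1 and Igf2, the receptors Insr, Igf1r and Igf2r, the adaptors Irs1, Irs2 and Grb10, and the binding proteins Igfbp3 and Igfbp5. The genes were listed by name, in a set chosen with earlier results of these data known. All 10 were found among the 55414 gene identifiers of the count tables. The islets came from C57BL/6 mice at 5 weeks of age and gave 8 libraries, 4 in each of 2 groups. By genotype, both groups were heterozygous for an ATF4 transgene (ATF4 TG(+/-)), so the controls were not free of it. They differed in Cre recombinase under the name of insulin 2, which was Ins2 cre(+/-) in TG and Ins2 cre(-/-) in WT. The design text describes the transgenic animals as beta-cell specific. No library from mice with Cre alone was analysed here, so effects of Cre and of the transgene cannot be told apart. ATF4 is a transcription factor of the integrated stress response, and the series title links it to endoplasmic reticulum stress and to a weakened response of beta cells to incretins. Whether replicates were separate animals is not stated in any label, so p-values cover the spread between the sequenced samples alone, which may be technical.

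As background, insulin and IGF1 bind the receptor tyrosine kinases encoded by Insr and Igf1r, which phosphorylate the docking proteins IRS1 and IRS2 and thereby recruit PI3-kinase and AKT. IGF2R lacks a kinase; it carries IGF2 and mannose 6-phosphate-tagged enzymes to lysosomes. GRB10 binds the activated receptors and restrains their signal, and the IGF-binding proteins hold IGFs outside the cell. In mice the loss of Irs2 leads to beta-cell failure.

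Each library held between 16521087 and 22499999 counts assigned to genes. A level is given as CPM, the counts-per-million unit in which each count is divided by a library size scaled by TMM, in the order of replicates 1 to 4, and a gene was called at a Benjamini-Hochberg adjusted p under 0.05 in edgeR's quasi-likelihood test over all 20509 tested genes. The tissue label was checked against markers of islet cells: all 10 beta-cell markers were detected and all 10 were lower in the TG libraries, with a summed level of 50093 to 64198 CPM in TG and 103120 to 123756 in WT. All 12 endothelial markers were called higher (summed 1355 to 1395 CPM in TG, 563 to 977 in WT), as were 8 of 12 stromal and mural markers (3432 to 6610 against 876 to 2863 CPM) and 9 of 12 macrophage markers (213 to 511 against 117 to 190 CPM). None of 5 alpha-cell markers and none of the 9 tested acinar markers was called by edgeR, DESeq2 or limma-voom, and 0 had an unadjusted p under 0.05, although the acinar sum was highest in TG 1, at 43077 CPM against 1317 to 13353 in the other 7 libraries. Duct markers were called higher in 4 of 6 (summed 752 to 1019 CPM in TG, 369 to 423 in WT), peritoneal macrophage markers in 3 of 4 tested (15.5 to 41.2 against 11.1 to 12.4 CPM) and Schwann cell markers in 2 of 6 (81.1 to 99.2 against 50.2 to 68.1 CPM), and none of these 3 sums overlapped between groups. In islet RNA of this kind, fewer cells of a type and less RNA per cell cannot be told apart. Atf4 itself was lower in TG, at 261 ± 19.8 CPM against 352 ± 21.1 in WT (SD, n = 4 each), with every TG library below every WT library (log2 change -0.43, edgeR adjusted p = 0.00226). Since transcripts of the transgene need not be counted under it, its counts check no label.

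In the TG islets, transcripts of the ligand Igf1, the receptor Insr, the adaptor Grb10 and the binding protein Igfbp3 rose, and transcripts of the adaptor Irs1 fell. Igf1 rose 3.61-fold, Grb10 2.04-fold, Igfbp3 1.81-fold and Insr 1.31-fold, and Irs1 was 1.66-fold lower. Igf1r, Igf2r, Irs2 and Igfbp5 did not pass the test, and Igf2 had too few counts to be tested. Of the 9 tested genes 5 were called, 4 higher and 1 lower, where 20.1% of all tested genes were called, 12.1% higher and 8.06% lower. The TG and WT values of the same 5 genes did not overlap, as was true of 22.6% of all tested genes (12.6% with TG higher, 9.94% with TG lower). The set was chosen with earlier results of these data known, so these shares are no independent test. The median log2 fold change of the 9 genes was 0.39, and that of all tested genes was -0.0019. The 10 genes together summed to 1154 to 1206 CPM in TG and to 778 to 988 CPM in WT.

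**Figure D1:**
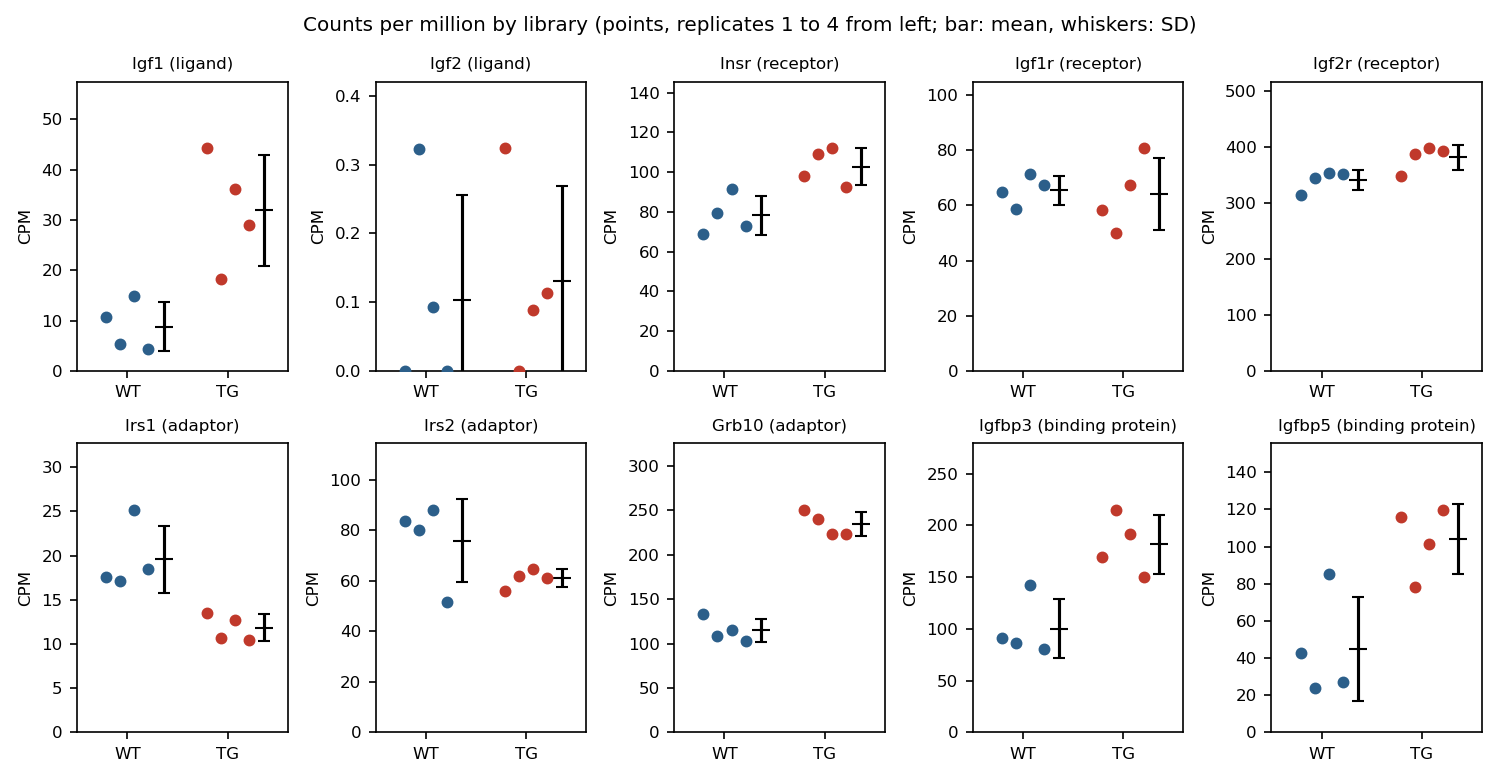
CPM (vertical axes from 0, each with its own scale) of the 10 genes in the 4 WT and 4 TG libraries; points are libraries in the order of replicates 1 to 4, and the bar and whiskers to their right are the mean and SD. Grb10, Igf1, Insr and Igfbp3 lie higher in every TG library than in any WT library, Irs1 lies lower in every TG library, and the values of the other 5 genes overlap.

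Igf1 (chromosome 10) encodes the main growth-promoting IGF after birth. It measured 44.3, 18.2, 36.2 and 29.0 CPM in the TG libraries and 10.6, 5.39, 14.8 and 4.34 CPM in the WT libraries. All 4 TG values lay above all 4 WT values, but the spread within each group was wide, at 31.9 ± 11.1 CPM in TG and 8.79 ± 4.87 in WT (SD, n = 4 each). On the log2 scale the difference was 1.85 (SE 0.45, edgeR adjusted p = 0.0294). The call was lost when TG 1, TG 3, TG 4, WT 1 or WT 2 was left out, with adjusted p of 0.0685, 0.0693, 0.0542, 0.0685 and 0.0742, while the log2 fold change stayed between 1.66 and 1.94 in those fits. It was also lost, at an adjusted p of 0.0902, when genes were not filtered for low counts. The same was true with TG 2 and TG 3 left out together (2.01, adjusted p = 0.0694).

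Stromal, endothelial and macrophage markers all rose beside Igf1. Per 1000 CPM of summed stromal and mural markers, Igf1 measured 6.70, 4.87, 7.78 and 8.45 CPM in TG and 7.75, 6.15, 5.17 and 4.59 in WT, and the groups overlapped. They also overlapped per 1000 CPM of endothelial markers (13.1 to 32.5 in TG, 7.71 to 16.6 in WT). The same was true per 1000 CPM of macrophage markers (35.7 to 173 in TG, 32.2 to 78.0 in WT). Per 1000 CPM of beta-cell markers, mostly Ins1 and Ins2, Igf1 was higher in TG (0.284 to 0.884 against 0.0385 to 0.144). With the mean log2 level of the endothelial and the stromal and mural markers as a covariate, the log2 fold change of Igf1 was -0.02 (SE 0.43, adjusted p = 0.993), and with the macrophage markers as a covariate it was 1.03 (SE 0.83, adjusted p = 0.718). Both covariates were higher in every TG library than in any WT library, and they raised the median standard error over all tested genes from 0.207 to 0.405 and 0.424. Their part in the difference was not tested.

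Igf2 (chromosome 7), the fetal IGF, whose transcript is shut off in most rodent tissues after birth, was at the limit of detection. It had 6, 0, 2 and 2 counts in TG and 0, 7, 2 and 0 in WT, and its highest level was 0.324 CPM, against a floor of 3 counts that equals 0.133 to 0.182 CPM. No difference was detectable at this depth. In GENCODE M21, 62.8% of the exon bases of Igf2 (3596 of 5723) are shared with Gm49394 on the same strand, which had 0 counts in every library. HTSeq leaves reads that fit more than 1 gene uncounted in its usual setting, so these counts may understate Igf2 if that setting was used. The log2 ratio of Igf2 to Igf1 counts, with 0.5 added to each, was -8.17 ± 1.15 in TG and -6.73 ± 2.01 in WT (SD, n = 4 each), an overlap with an exact permutation p of 0.286 (two-sided).

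Insr (chromosome 8) encodes the insulin receptor. It measured 97.9, 109, 112 and 92.3 CPM in TG and 69.1, 79.5, 91.4 and 72.8 CPM in WT. The highest WT library, WT 3, lay just under the lowest TG library, TG 4. Means were 103 ± 9.27 and 78.2 ± 9.79 CPM (SD, n = 4 each), with a log2 fold change of 0.39 (SE 0.10, edgeR adjusted p = 0.0126). The call was lost without TG 3 (0.32, adjusted p = 0.0702) and without WT 1 (0.33, adjusted p = 0.0517). It was also lost with TG 2 and TG 3 left out together, the TG libraries with the most macrophage marker counts (0.24, adjusted p = 0.259).

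Endothelial and macrophage markers rose beside Insr, and their part in its difference was not tested. Relative to 1000 CPM of endothelial markers Insr was lower in TG, at 66.8 to 82.7 CPM against 93.5 to 138 in WT, so the endothelial sum rose more than Insr did. Insr was higher in TG per 1000 CPM of beta-cell markers, mostly Ins1 and Ins2, at 1.70 to 2.21 against 0.558 to 0.886. The log2 fold change of Insr was 0.13 (adjusted p = 0.895) with vascular and stromal markers as a covariate and 0.0010 (adjusted p = 0.998) with the macrophage covariate.

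Igf1r (chromosome 7), the receptor for IGF1, measured 58.4, 49.9, 67.2 and 80.7 CPM in TG and 64.8, 58.7, 71.3 and 67.3 CPM in WT. The TG values spanned the whole WT range. The log2 fold change, -0.03 (SE 0.13, edgeR adjusted p = 0.894), had a 95% interval of -0.30 to 0.24, and its sign changed in several alternative fits. Set against Igf1r in the same library, Insr gave a log2 ratio of counts of 0.744, 1.13, 0.736 and 0.195 in TG and of 0.0916, 0.438, 0.358 and 0.115 in WT. TG 4 lay within the WT values, and the difference of 0.45 gave an exact permutation p of 0.0857 (two-sided, 70 arrangements), or 0.229 adjusted over the 4 ratios tested. With 4 libraries against 4, the smallest p the test can give is 0.0286.

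Igf2r (chromosome 17) encodes the clearing receptor for IGF2, and it had the highest CPM of the 10 genes. It measured 348, 387, 397 and 393 CPM in TG and 315, 344, 354 and 351 CPM in WT. TG 1 fell among the WT values and the other TG libraries lay above them. The log2 fold change was 0.16 (SE 0.082, 95% interval -0.01 to 0.34, edgeR adjusted p = 0.195), and it stayed between 0.08 and 0.21 without a call in all 21 alternative fits.

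Grb10 (chromosome 11) is an imprinted gene, and its protein is an adaptor that inhibits the kinases of the insulin and IGF1 receptors. It showed the smallest adjusted p of the 10 genes. It measured 250, 240, 223 and 223 CPM in TG and 133, 108, 115 and 103 CPM in WT, so the lowest TG library lay 1.68-fold above the highest WT library. Means were 234 ± 13.5 and 115 ± 12.9 CPM (SD, n = 4 each), with a log2 fold change of 1.03 (SE 0.092, edgeR adjusted p = 2.26e-06). Grb10 was the only one of the 10 genes called in all 21 alternative fits, with log2 fold changes of 0.86 to 1.10. The largest adjusted p of these was 0.0476, from the fit with vascular and stromal markers (0.86), and the macrophage covariate gave 0.0331. Set against 1000 CPM of endothelial markers, Grb10 measured 184, 172, 164 and 162 CPM in TG and 207, 187, 118 and 184 CPM in WT, and these groups overlapped.

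The Grb10 promoters are shown because Grb10 was the member with the most stable call, and that of Irs1 because it was the only member called lower. These are the 250 bases upstream of annotated start sites, from RefSeq on GRCm38.p6, on the minus strand and written 5′ to 3′. Capitals mark TGACG, the core of the cyclic AMP response element that ATF and CREB factors bind, or its reverse complement.
Grb10, chr11:12027972-12028221: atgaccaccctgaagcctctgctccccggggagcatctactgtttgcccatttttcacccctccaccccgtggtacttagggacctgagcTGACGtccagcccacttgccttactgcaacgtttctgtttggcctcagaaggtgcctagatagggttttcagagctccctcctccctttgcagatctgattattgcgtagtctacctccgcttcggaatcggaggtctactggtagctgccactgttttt
Grb10, chr11:12037421-12037670: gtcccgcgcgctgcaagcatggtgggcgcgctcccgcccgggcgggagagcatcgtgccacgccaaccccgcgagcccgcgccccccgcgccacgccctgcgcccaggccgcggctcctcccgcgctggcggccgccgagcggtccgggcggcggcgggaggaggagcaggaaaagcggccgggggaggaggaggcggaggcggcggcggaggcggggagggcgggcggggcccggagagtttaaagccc
Irs1, chr1:82291440-82291689: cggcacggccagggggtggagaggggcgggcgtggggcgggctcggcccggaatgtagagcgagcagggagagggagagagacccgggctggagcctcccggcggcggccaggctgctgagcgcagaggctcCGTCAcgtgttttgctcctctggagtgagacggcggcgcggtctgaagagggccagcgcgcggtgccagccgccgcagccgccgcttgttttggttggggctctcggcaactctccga
A set of 3 motifs was searched on both strands in 13 such windows of 9 of the 10 genes, and Insr had no entry. TGACG was found in 4 windows, 1 each of Grb10, Igf2, Igf2r and Irs1, where 17.8% of 32851 mouse windows of this length hold it. The ATF4 composite element TGATGNAA, with N any base, was in none of the 13 windows and in 3.45% of all windows. The FOXO element GTAAACA, bound by factors that AKT holds out of the nucleus, was in none of the 13 and in 3.17% of all. As only TGACG was found, no match overlapped one of another motif. A match is a description of the letters, and the absence of one says nothing of binding elsewhere.

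Irs1 (chromosome 1) encodes a docking protein of both receptors. It measured 13.5, 10.7, 12.7 and 10.4 CPM in TG and 17.6, 17.1, 25.2 and 18.5 CPM in WT. Every TG library lay below every WT library, and WT 3 stood above the other WT libraries. Means were 11.8 ± 1.51 and 19.6 ± 3.77 CPM (SD, n = 4 each), with a log2 fold change of -0.73 (SE 0.16, edgeR adjusted p = 0.00391). The call held in all 8 fits with 1 library left out, and the log2 fold change was -1.38 (adjusted p = 0.0084) with vascular and stromal markers as a covariate and -1.18 (adjusted p = 0.0785) with the macrophage covariate. Per 1000 CPM of beta-cell markers, which fell too, Irs1 measured 0.269, 0.166, 0.251 and 0.200 CPM in TG and 0.142, 0.152, 0.244 and 0.164 in WT, and the groups overlapped. Ins1 and Ins2 made up most of that sum, with WT means of 19964 and 69622 of 113019 CPM. The ratio is thus not a level per beta cell. The part of the beta-cell markers in the fall of Irs1 was not tested. In GENCODE M21, 30.9% of the exon bases of Irs1 lie opposite Gm9747, which had 0 counts in every library.

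Irs2 (chromosome 8), the docking protein that mouse beta cells depend on, measured 56.0, 62.0, 64.5 and 61.3 CPM in TG and 83.8, 80.1, 88.1 and 51.6 CPM in WT. WT 4 lay below all 4 TG libraries and the other 3 WT libraries lay above them. The log2 fold change was -0.32 (SE 0.14, 95% interval -0.61 to -0.02, edgeR adjusted p = 0.127). Without WT 4 it was -0.47 (adjusted p = 0.00354), and it was also called with the acinar markers as a covariate (-0.42, adjusted p = 0.0367) and without the low-count filter (-0.34, adjusted p = 0.0287). The log2 ratio of Irs2 to Irs1 was 2.37 ± 0.233 in TG and 1.94 ± 0.368 in WT (SD, n = 4 each), with an exact permutation p of 0.114 (two-sided, 0.229 adjusted over the 4 ratios). A different change of the 2 adaptors was not detected, and the adjusted test could not have detected one in this ratio alone.

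Igfbp3 (chromosome 11) encodes the main carrier of IGFs in blood and also binds them around cells. It measured 170, 215, 192 and 150 CPM in TG and 90.9, 86.1, 143 and 80.8 CPM in WT. All TG libraries lay above all WT libraries, with WT 3 close to TG 4. Means were 182 ± 28.1 and 100 ± 28.7 CPM (SD, n = 4 each), with a log2 fold change of 0.86 (SE 0.19, edgeR adjusted p = 0.0104), and the call held with each library left out. It was lost with TG 2 and TG 3 left out together (0.63, adjusted p = 0.0775). Per 1000 CPM of endothelial markers Igfbp3 measured 125, 154, 141 and 108 CPM in TG and 142, 149, 146 and 144 in WT, where the 4 WT libraries, WT 3 included, differed by only 6.93 CPM. The log2 fold change of Igfbp3 was 0.10 (adjusted p = 0.935) once vascular and stromal markers were a covariate and -0.05 (adjusted p = 0.957) with macrophage markers, and the part of these cells in the difference was not tested.

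Igfbp5 (chromosome 1), a binding protein that also attaches to the extracellular matrix, measured 116, 78.4, 102 and 120 CPM in TG and 42.8, 23.8, 85.1 and 27.4 CPM in WT. WT 3 lay above TG 2, and the other WT libraries lay below all TG libraries. Means were 104 ± 18.7 and 44.8 ± 28.1 CPM (SD, n = 4 each), with a log2 fold change of 1.21 (SE 0.44, 95% interval 0.16 to 2.27, edgeR adjusted p = 0.112). Without WT 3 it was 1.72 (adjusted p = 0.000454), and DESeq2 called it at an adjusted p of 0.0234. Per 1000 CPM of stromal and mural markers Igfbp5 measured 17.5, 20.95, 21.8 and 34.9 CPM in TG and 31.2, 27.2, 29.7 and 28.9 in WT, and adding vascular and stromal markers to the fit gave a log2 fold change of -0.53 (adjusted p = 0.487). The log2 ratio of Igfbp5 to Igfbp3 was 0.50 higher in TG (exact permutation p = 0.2, two-sided, 0.267 adjusted over the 4 ratios). No different change of these genes was detected, and for this ratio alone the adjusted test could not have detected one.

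**Figure D2:**
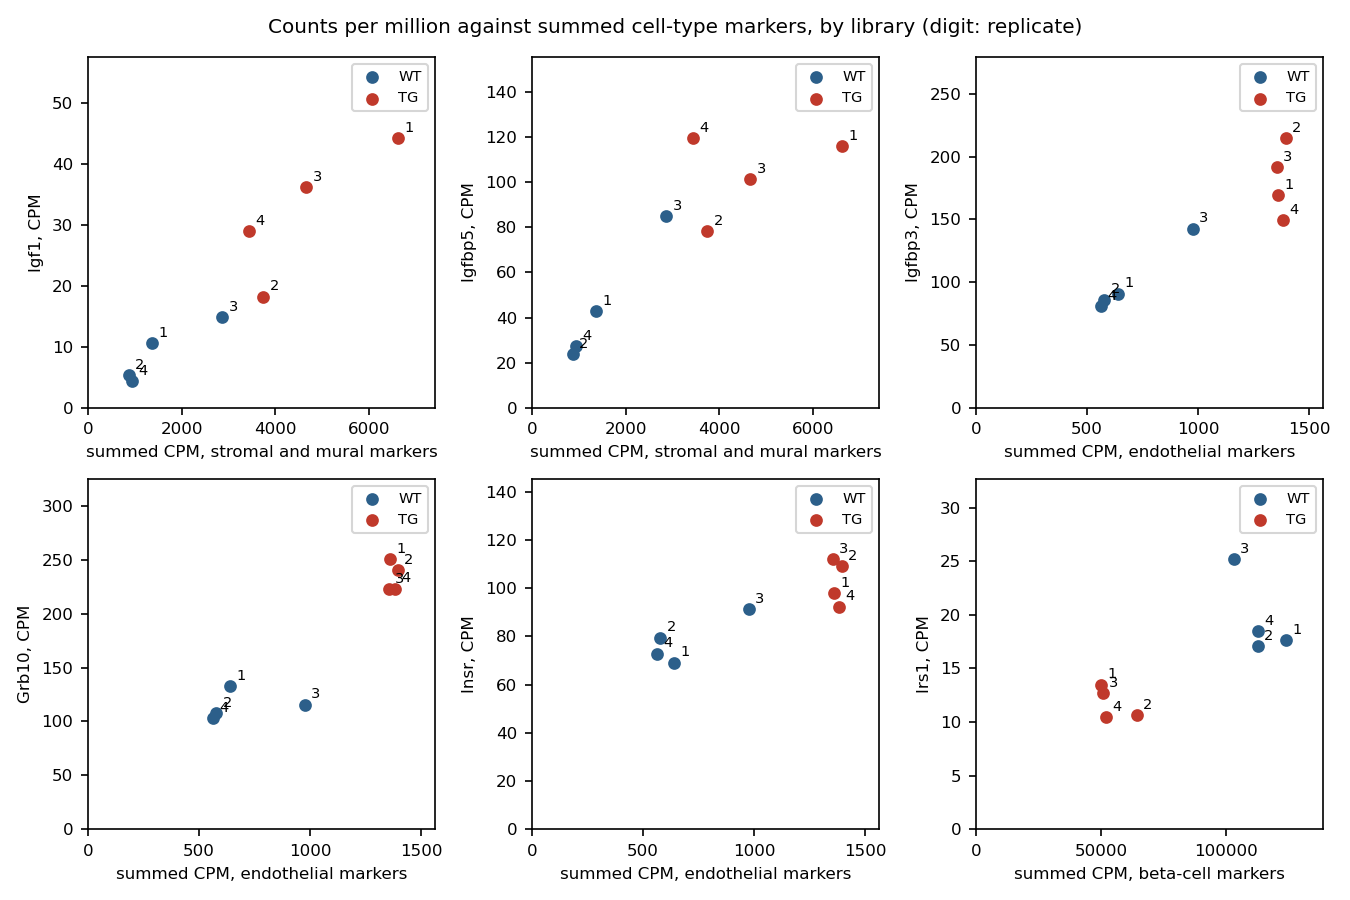
CPM of 6 genes (vertical axes) against the summed CPM of a marker list (horizontal axes) in each library, TG red and WT blue, with the replicate number beside each point. WT 3 is the WT library with the most endothelial (977 CPM) and stromal markers (2863 CPM). It has the highest WT level of Igf1, Igfbp5, Igfbp3, Insr and Irs1, but not of Grb10. The same library was highest in WT for Igf1r, Igf2r and Irs2, which are not plotted. For these, WT 3 and the next WT library measured 71.3 and 67.3, 354 and 351, and 88.1 and 83.8 CPM. In proportion WT 3 led by more for Igfbp5 (85.1 against 42.8 CPM), Igfbp3 (143 against 90.9) and Igf1 (14.8 against 10.6). It also did so for Irs1 (25.2 against 18.5) and Insr (91.4 against 79.5). The part of the markers in these values was not tested.

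**Figure D3:**
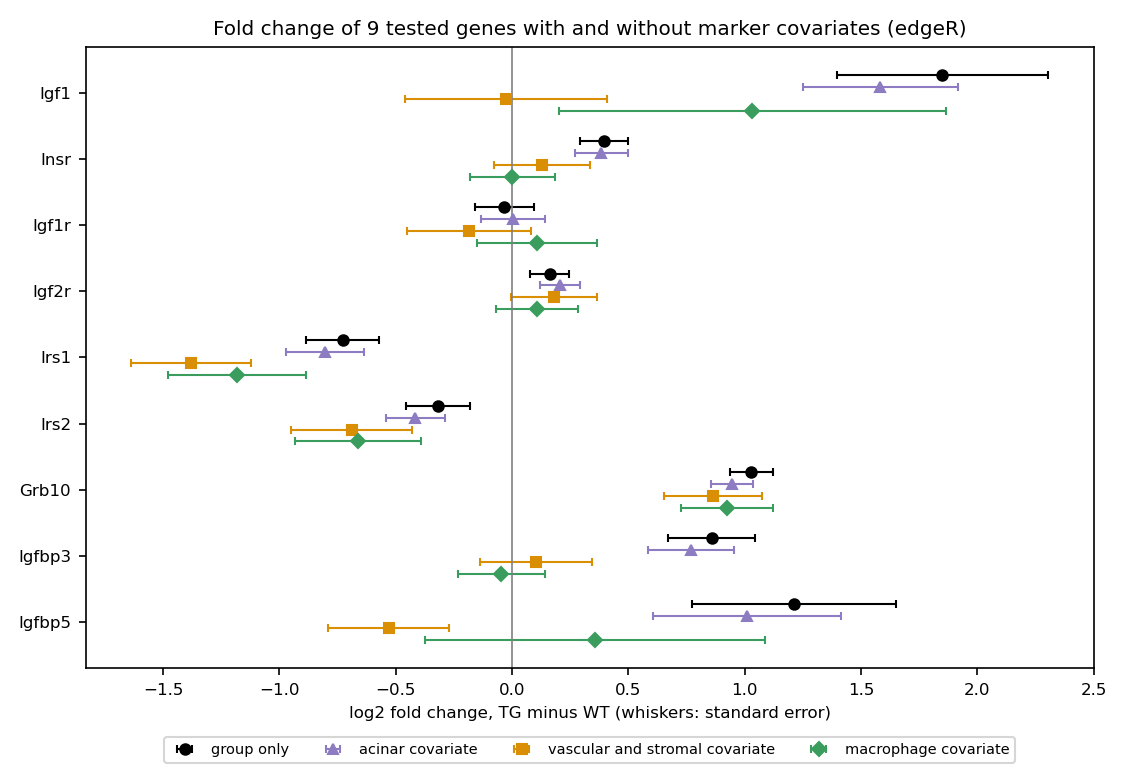
Log2 fold change, TG minus WT, of the 9 tested genes (horizontal axis, whiskers are the standard error) with group as the only term and with each of 3 marker covariates added. Grb10 stays near 0.9 to 1.0 throughout, whereas Igfbp3, Insr and Igf1 move toward 0 with the vascular and stromal covariate. With it Igfbp5 crosses 0, and Irs1 and Irs2 move away from 0, as do Igf1r and Igf2r by less than their standard errors. That covariate was higher in every TG library than in any WT library, and it raised the standard error of Grb10 from 0.092 to 0.21.

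Compared per kilobase of exon (CPM per kb, exon lengths from GENCODE M21), the WT order ran from Igf2r at 36.6 and Igfbp3 at 32.0 through Grb10 at 12.6, Irs2 at 12.0, Igfbp5 at 7.46, Insr at 5.69, Igf1r at 3.90, Irs1 at 2.14 and Igf1 at 0.888 to Igf2 at 0.0181 CPM per kb. Neighbours that overlapped between libraries were Igf2r and Igfbp3, Grb10 and Irs2, Irs2 and Igfbp5, and Igfbp5 and Insr. In TG, Igfbp3 led at 58.0 CPM per kb, before Igf2r at 40.9, Grb10 at 25.8, Igfbp5 at 17.3, Irs2 at 9.64, Insr at 7.48, Igf1r at 3.82, Igf1 at 3.22, Irs1 at 1.29 and Igf2 at 0.0230. Only Igf1r and Igf1 overlapped among TG neighbours. The receptor Insr stood above Igf1r in both groups, and Igf1 ranked below Irs1 in WT and above it in TG.

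The genes whose profile over the 8 libraries lay nearest to each called member were found among 11338 tested genes by the mean absolute difference of centred log2 CPM. For Igf1 they were Cdh11 (0.122), Epha3 (0.141) and Itga8 (0.159), and for Igfbp3 Col13a1 (0.0883), Tspan9 (0.0900) and Slc9a3r2 (0.0935). Those near Grb10 included Serping1 (0.0808) and Id2 (0.0812). Insr lay nearest to Prkcd (0.0447), Oaz2 (0.0509) and Caprin2 (0.0524), and Irs1 to Atad2 (0.0965), Dmpk (0.102) and Cgn (0.106).

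Around these members, 87 further genes of the insulin and IGF pathway were tested in 7 lists, of which 15 rose and 11 fell (29.9% called, against 20.1% of all tested genes). These lists were also chosen with earlier results of these data known. The list of other ligands, binding proteins, proteases that release IGFs and stanniocalcins, which inhibit those proteases, gave 6 higher and 3 lower of 12, with a median log2 fold change of 1.03. The 6 were the binding proteins Igfbp4 and Igfbp7, the proteases Pappa and Pappa2 and the stanniocalcins Stc1 and Stc2, all but Igfbp7 named after their values were seen. Igfbp7, a weak IGF binder, rose from 856 ± 140 to 1355 ± 131 CPM (0.66 on the log2 scale, adjusted p = 0.000815). The 2 insulin genes fell: Ins1 measured 6130, 9810, 5676 and 4873 CPM in TG and 19074, 19851, 22143 and 18787 in WT (log2 change -1.59, adjusted p = 0.0004), and Ins2 measured 33580 ± 2956 in TG and 69622 ± 9106 CPM in WT (SD, n = 4 each; -1.05, adjusted p = 5.29e-06). Igf1 and the insulin genes, ligands of related receptors, moved in opposite directions in these libraries.

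Among 18 other receptors, adaptors and receptor inhibitors 3 rose and 4 fell, with a median of 0.0032. Insrr, the insulin receptor-related receptor, which binds no known insulin family ligand, fell from 309 ± 65.8 to 124 ± 30.5 CPM (-1.32, SE 0.22, adjusted p = 0.00321). Ptprf, a phosphatase that acts on the insulin receptor, fell (-0.61, adjusted p = 0.00111), and Enpp1, an inhibitor of that receptor, rose (0.95, adjusted p = 0.00257). Of 23 PI3-kinase and AKT genes 2 rose and 2 fell, or 17.4% called against 20.1% of all tested genes, and of 13 mTOR genes 1 rose and 1 fell. Tbc1d1 fell (-0.50, adjusted p = 0.00114) and Tbc1d4 rose (0.50, adjusted p = 0.0179, but 0.0982 without TG 3 and 0.0593 without WT 1). Both are AKT substrates that control vesicle traffic. Pdpk1, the kinase that activates AKT, fell (-0.34, adjusted p = 0.0207), without a call when TG 1, WT 2 or WT 4 was left out (adjusted p = 0.0709, 0.0759 and 0.0695).

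Deptor, an inhibitor of mTOR, lay between 49.8 and 60.8 CPM in WT and rose to between 72.5 and 96.5 CPM in TG (0.55, adjusted p = 0.00175), and Tsc1, part of the complex that restrains mTORC1, fell (-0.34, adjusted p = 0.0100). Rptor, the scaffold of mTORC1, had a log2 fold change of -0.32 (adjusted p = 0.099, but 0.00477 without TG 4). None of 10 RAS and MAP kinase genes passed edgeR's test, 5 had an unadjusted p under 0.05, and DESeq2 called 2 and limma-voom 0. The lowest adjusted p were those of Map2k2 (-0.26, 0.0677), Araf (-0.28, 0.0723) and Braf (-0.25, 0.0764), all called lower without TG 4 (adjusted p = 0.0363, 0.0111 and 0.0244). None of the 3 IGF2 mRNA-binding proteins passed by edgeR, DESeq2 or limma-voom, or had an unadjusted p under 0.05. Of 8 stress-response brakes on insulin and mTOR signalling 3 rose and 1 fell. Trib3, a pseudokinase reported to bind AKT, rose from 1.92 ± 0.400 to 79.9 ± 15.7 CPM (5.39 on the log2 scale, SE 0.18, adjusted p = 2.88e-11). Eif4ebp1, a translation repressor that mTOR switches off, rose from 12.5 ± 1.43 to 111 ± 6.94 CPM (3.16, adjusted p = 2.05e-11), and Sesn2 rose from 29.1 ± 3.94 to 66.8 ± 17.2 CPM (1.20, adjusted p = 0.000528). Of the 32 genes called in these lists and among the imprinted genes, Trib3, Eif4ebp1, Sesn2, Deptor and Peg3 were still called with vascular and stromal markers as a covariate, and Trib3, Eif4ebp1, Ins1 and Peg3 with macrophage markers. Some of the lost calls kept their size, such as Ins1 (-1.70), Ptprf (-0.81) and Tbc1d1 (-0.59) with vascular and stromal markers and Deptor (0.84) and Cdkn1c (1.36) with macrophage markers. Others shrank with vascular and stromal markers, such as Igfbp7 (0.087) and Enpp1 (0.29). With these markers Cdkn1c went from 1.32 to 0.83 (SE 0.59, edgeR adjusted p = 0.687).

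Grb10, Igf2, H19 and several others belong to the imprinted growth genes, and of the 10 such genes outside the member set, listed apart from the pathway, 3 rose and 3 fell. H19, the neighbour of Igf2, measured 12.7, 5.07, 15.6 and 3.48 CPM in TG and 0.676, 0.230, 3.01 and 0.489 CPM in WT (3.04, SE 0.85, adjusted p = 0.0457). Its groups did not overlap, but the call was lost when TG 1, TG 2, TG 3, WT 1, WT 2 or WT 4 was left out, with adjusted p of 0.062 to 0.127. It was also lost with limma-voom (adjusted p = 0.0718), without the low-count filter (0.134) and with acinar markers as a covariate (0.0804), and the log2 fold change of H19 was -0.30 with vascular and stromal markers and 0.42 with macrophage markers as a covariate. Cdkn1c, an inhibitor of cell division, rose (1.32, adjusted p = 0.00182), Peg3 fell (-0.88, adjusted p = 1.80e-05), and Nnat fell (-1.12, adjusted p = 0.0141; 0.0522 without TG 1). Pde4d, the phosphodiesterase named in the series title, rose from 20.1 ± 2.85 to 30.0 ± 3.98 CPM (0.58, adjusted p = 0.00636).

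**Figure D4:**
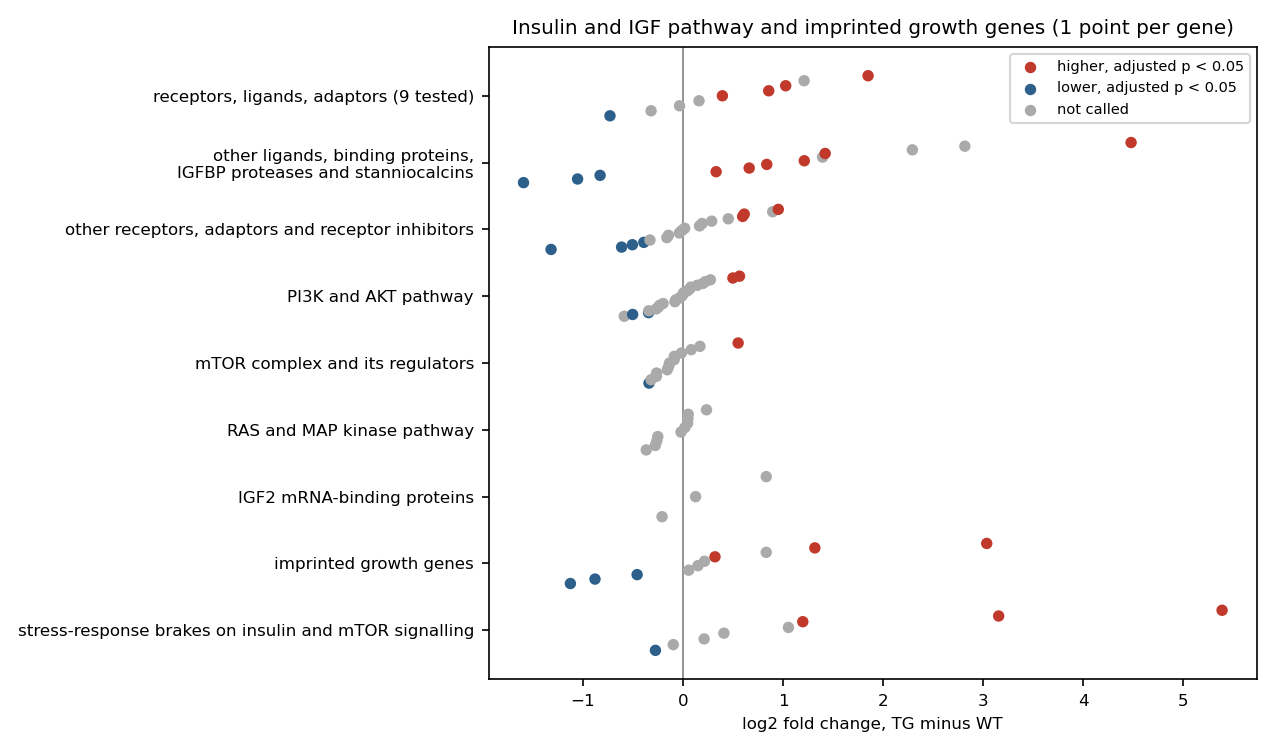
Log2 fold change, TG minus WT (horizontal axis), of each tested gene in the 9 lists, 1 point per gene and 1 band per list; red and blue points were called higher and lower, grey points were not called. Called genes were 9 of 12 other ligands, binding proteins, proteases and stanniocalcins, 6 of 10 imprinted genes and 4 of 8 stress-response brakes. Among other receptors, adaptors and inhibitors 7 of 18 were called, and 5 of the 9 tested members. The remaining lists gave 4 of 23 PI3-kinase and AKT, 2 of 13 mTOR, 0 of 10 RAS and MAP kinase and 0 of 3 IGF2 mRNA-binding protein genes. Of all tested genes 20.1% were called, and the lists were chosen with earlier results of these data known.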

How the data were processed

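Islet RNA was sequenced in 8 libraries, and per the labels these are 4 TG and 4 WT. The authors deposited raw counts per Ensembl mouse gene, 1 table per library. Per the submitters' processing notes, the tools were STAR 2.7.10a and HTSeq 0.11.3 and the build mm39. The use of strand in counting: not given in the sources used here, so antisense reads cannot be told apart. The 5 entries for reads given to no gene were left out (25.3% to 31.5% outside genes, 3.74% to 4.36% ambiguous). Symbols came from GENCODE M21 (GRCm38), which named 52081 of 55414 identifiers, and promoters from RefSeq GRCm38.p6.

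Genes were filtered with filterByExpr (minimum count 10) and tested with edgeR 4.0.16 (TMM, robust quasi-likelihood, two-sided, group only) in R 4.3.3. Ratios were compared by exact permutation tests over libraries, adjusted over 4 ratios. Marker covariates were the mean log2 CPM of each list with a prior count of 2. Alternatives were DESeq2 1.42.0, limma-voom (limma 3.58.1), other scalings and filters, 3 marker covariates, the replicate block and each library left out; leaving out 2 pairs of libraries was chosen after seeing the data.

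The step was tested on simulated data for this comparison over 20509 genes, 3 times with 200 changed genes. Among changed genes that passed the count filter, the share found was 28.5% at 1.5-fold, 60.5% at 2-fold and 86.2% at 4-fold. It called 24 of 58393 unchanged genes. In the data 4129 genes were called, against 200 changed in each simulation, so these shares need not hold for the data. Libraries of a group differed beyond sampling noise (chi-square per gene 16.4 to 58.7). Floors cover counting error only.

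Genes were named by a rule: the 10 members, Ins1, Ins2, H19, Atf4 and Pde4d, up to 3 genes per pathway list with the lowest adjusted p, and the 3 tested genes (mean of at least 5 CPM, named symbols) nearest in profile to each called member. A gene that this rule selects is not reported here. The members, lists and marker genes were chosen with earlier results of these data known. The figures were drawn with matplotlib 3.10.9.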

Additional observations from a re-analysis of the deposited data

Results flagged for a closer look

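In 66 groups of 4 libraries examined for a value far from the other 3, 3 held one, and chance would give about 3.3 (1 in 20). Irs1 measured 25.2 CPM in WT 3, and 17.1 to 18.5 CPM in the other WT libraries. Igfbp3 measured 143 CPM in the same library, and 80.8 to 90.9 CPM in the others. The summed beta-cell markers measured 64198 CPM in TG 2, and 50093 to 52090 CPM in the other TG libraries.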

How the results depend on the processing

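The number of members called by edgeR, 5, became 3 to 6 with 1 library left out (3 without TG 3 and 3 without WT 1). Of the original 5, 3 to 5 stayed called in those fits. The number fell to 2 with TG 2 and TG 3 left out together, 2 with the vascular and stromal covariate and 1 with the macrophage covariate. Under the same 3 settings the genes called over the whole table, 4129, became 2254, 344 and 250, and the pathway and imprinted genes called, 32, became 19, 5 and 4. These fits use fewer libraries or a covariate that follows the groups. With 1 library left out, 2864 to 4404 genes and 22 to 39 pathway and imprinted genes were called. Changes of sign were, with the vascular and stromal covariate, Igf1 -0.025, Igfbp5 -0.53, H19 -0.30 and Pdpk1 0.022, and with the macrophage covariate Igfbp3 -0.047, Igf1r 0.11 and Rptor 0.064. Igf1r, near 0 throughout, also turned to 0.0033 with the acinar covariate, 0.046 without TG 2 and TG 3 and 0.034 without TG 1 and WT 3, and ran from -0.19 to 0.068 with 1 library left out. Igf2bp3 (0.13) turned to -0.31 without TG 1 and WT 3 and ran from -0.11 to 0.34. The cause of these changes was not tested.

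Same-numbered libraries correlated at -0.030, 0.081, 0.019 and 0.0079, and other pairs of a TG and a WT library at -0.153 to 0.132. These correlations show no pairing by replicate number. With the replicate number as a block, 4673 genes, the same 5 members and 39 pathway and imprinted genes were called. The median standard error was 0.188 with the block and 0.207 without. With the block, the edgeR adjusted p was 4.41e-05 for Igf1 and 3.11e-05 for H19. The block cannot change the mean differences of the ratios (0.45 for Insr to Igf1r, 0.43 for Irs2 to Irs1, -1.44 for Igf2 to Igf1 and 0.50 for Igfbp5 to Igfbp3). The smallest exact p of 4 signed pairs is 0.125, so no ratio could pass 0.05. The ratio of Igf2 to Igf1 has no value without a pseudocount. The 3 scalings and both other tools kept the direction of all 9 tested members. Igf2 was the only member with too few counts to test.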
